A study of Arabidopsis thaliana with 24 samples.

Results

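The comparison described here is that of mock-treated roots of the Q0990 cross with mock-treated roots of the C24 cross, taken across every gene, which is 6 of the 24 libraries of an RNA sequencing study of Arabidopsis thaliana seedlings. The Q0990 group consisted of F1 plants of a UAS::abi1-1 line and the enhancer trap line Q0990, and the C24 group of F1 plants of that same UAS::abi1-1 line and the accession C24, which carries no driver and was the wild-type control. The transgene was therefore present in both groups. Both were 5-day-old seedlings moved for 8 h to plates without abscisic acid (ABA), and the roots, of 1 cm, of 50 to 100 seedlings were pooled for each of the 3 libraries per group. The same 2 crosses treated for 8 h with 1 µM ABA, and the crosses to the drivers J0571 and J1721 under both treatments, were used only where named. Each driver is represented by 1 enhancer trap line, so a difference that comes with the line's own insertion or genome and a difference that comes from abi1-1 in its cells cannot be told apart. Whether the 3 pools of a group were sown apart is not stated, and p-values then cover only the variation from pool to pool.

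In an enhancer trap line, an inserted activator gene is switched on by regulatory DNA near its insertion and so marks a particular set of cells. The activator binds the upstream activating sequence (UAS) and turns on whatever gene is placed behind it. The gene behind it here is abi1-1. It encodes a mutant ABI1 phosphatase that ABA receptors can no longer inhibit, and cells that make it respond poorly to ABA. ABA is the hormone of drought and osmotic stress, and in roots it also acts at low levels in unstressed plants, in xylem formation, suberin deposition and growth. Q0990 is widely used as a driver for the stele, the vascular cylinder of the root, although the labels name no cell type for it. With no ABA added, the comparison asks what the driver cross does to the root transcriptome before treatment.

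The 6 libraries held 38542817 to 46790571 counts, and 21315 of 34218 features passed a filter on low counts and were tested. Root identity was as labelled in both groups: CASP2, a Casparian strip gene of the endodermis, lay at 54.2, 51.4 and 54.6 CPM (counts scaled to a common library size) in Q0990 and at 57.1, 50.5 and 47.5 CPM in C24, and RBCS1A, a photosynthesis gene of green tissue, at 17.9, 8.70 and 15.5 CPM in Q0990 and 22.3, 8.35 and 8.995 CPM in C24. Library 1 of both groups stood apart. On the first principal component of these libraries, which held 36.1% of their variance, library 1 lay at -13.8 in Q0990, against 4.55 and -4.88 for libraries 2 and 3, and at -20.0 in C24, against 17.1 and 17.1. The second component held 29.9%, and on it the crosses did not overlap. Libraries 1, 2 and 3 lay there at -1.85, 11.1 and 22.4 in Q0990 and at -15.5, -5.76 and -10.4 in C24. Over the 17561 genes whose mean log2 CPM was 1 or more, the median standard error of the log2 difference was 0.10, and the median 95% interval reached 0.21 to either side.

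ABI1, whose mutant form the transgene carries, was read at 115, 103 and 114 CPM in Q0990 mock libraries and at 105, 93.7 and 94.3 CPM in C24 mock libraries. The ranges overlapped, with the highest C24 library above the lowest Q0990 library, and the log2 difference (Q0990 minus C24, as throughout) was 0.18 ± 0.12 (SE; 95% interval -0.07 to 0.42; adjusted p = 0.91, edgeR's quasi-likelihood test, adjusted by Benjamini-Hochberg over all genes, as for every adjusted p here). Counts of reads do not part transcripts of the native gene from those of the transgene, so this neither shows nor excludes expression of abi1-1 in the driver's cells.

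Mock roots of the 2 crosses differed in few genes. Of 21315 genes, 10 were called at an adjusted p under 0.05, which is 0.0469% of those tested, and all 10 were higher in Q0990. None was called lower. At an unadjusted p under 0.05 there were 1117 genes (5.24%), of which 702 were higher (3.29%) and 415 lower (1.95%). The 3 Q0990 libraries lay wholly above the 3 C24 libraries for 1001 genes (4.7%) and wholly below them for 843 (3.95%). The median log2 difference over all genes was 0.01. Among those 17561 genes of higher level, an estimated log2 difference beyond 1 in either direction was found for 18. The highest adjusted p among the 10 called genes was 0.0132, and the lowest among all other genes was 0.0664. The count was 17 with DESeq2, which included all 10, and 6 to 17 with 1 of the 6 libraries left out (17 without Q0990 library 1, 6 without C24 library 2). Without library 1 of both crosses it was 8, of which 6 were among the 10.

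**Figure D1:**
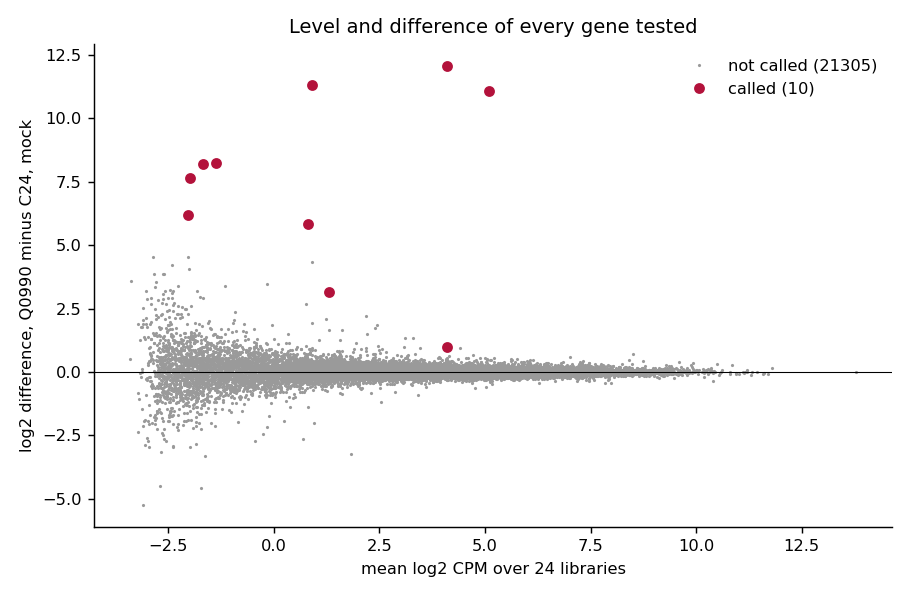
Log2 difference (Q0990 minus C24, mock) against mean log2 CPM over the 24 libraries for the 21315 genes tested. The 10 called genes, in red, all lie above 0; the height of those with few or no counts in C24 depends on the prior count of the fit and is not a bound.

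None of the 10 called genes belongs to the lists of ABA, cell type and metabolism genes described further on. In the RefSeq annotation of assembly TAIR10.1, 7 of them are long non-coding or other non-coding RNA loci, a class that makes up 489 of the tested genes (2.29%), and the other 3 are protein-coding genes, of which AT4G16215 and AT1G23915 are annotated as uncharacterized proteins and AT4G03590 as a protein of the cystatin and monellin superfamily. By chromosome, 1 was on chromosome 1, and chromosomes 2, 3 and 4 held 3 each. To show what these transcripts are, 4 of the loci with at most 7 counts in the C24 mock libraries together are printed from RefSeq TAIR10.1, 5′ to 3′ on the minus strand of their chromosome: the whole annotated RNA of the single-exon non-coding loci AT3G06955 and AT3G09845 on chromosome 3, the first 300 of 340 bases of the single-exon AT2G05695 on chromosome 2, and the first exon of AT4G16215 on chromosome 4. Capitals mark CACGTG, which reads the same on both strands and is the G-box core also found in many ABA-responsive elements, or, in AT4G16215, the start codon.
AT3G06955: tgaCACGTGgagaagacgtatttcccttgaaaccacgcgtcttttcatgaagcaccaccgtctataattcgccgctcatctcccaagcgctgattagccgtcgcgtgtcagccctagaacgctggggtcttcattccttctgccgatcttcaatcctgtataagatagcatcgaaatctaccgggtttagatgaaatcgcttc
AT3G09845: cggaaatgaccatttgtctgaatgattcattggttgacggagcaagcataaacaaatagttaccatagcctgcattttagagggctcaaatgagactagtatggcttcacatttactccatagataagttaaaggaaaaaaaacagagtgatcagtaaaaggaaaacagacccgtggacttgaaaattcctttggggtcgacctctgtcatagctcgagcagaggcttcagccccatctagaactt
AT2G05695: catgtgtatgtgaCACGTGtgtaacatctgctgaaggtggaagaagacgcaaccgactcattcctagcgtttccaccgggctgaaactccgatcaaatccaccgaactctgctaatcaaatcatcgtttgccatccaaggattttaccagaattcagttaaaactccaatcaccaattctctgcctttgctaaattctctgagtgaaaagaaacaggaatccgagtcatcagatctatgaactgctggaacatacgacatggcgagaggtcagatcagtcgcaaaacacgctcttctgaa
AT4G16215: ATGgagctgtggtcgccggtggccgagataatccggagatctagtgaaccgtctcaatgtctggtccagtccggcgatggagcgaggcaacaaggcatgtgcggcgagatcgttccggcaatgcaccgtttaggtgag
CACGTG occurred at base 4 of AT3G06955 and at base 14 of AT2G05695 and was not found in the 246 bases of AT3G09845. Among tested genes long enough for the comparison, 804 of 21161 (3.8%) hold it in their first 203 bases and 1031 of 21062 (4.9%) in their first 300 bases. The other called loci were not searched for CACGTG, so no share among the called genes can be set beside these. The match is a description of the sequence only.

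A group of 5 loci was read in Q0990 and at 0 or low counts in the other 3 crosses. AT4G16215 had 3469, 3423 and 3429 counts in Q0990 mock libraries (76.8 ± 5.37 CPM; SD, n = 3), against 1, 1 and 0 counts in C24 mock libraries, a ratio of normalized counts of 5039 with a 95% counting interval of 1395 to 41612.5 (adjusted p = 1.21e-07). No library of J0571 or J1721 held more than 18 counts of it. AT2G05695, the 340-base RNA whose start is printed above, had 349, 284 and 308 counts in Q0990 and none in the 3 C24 libraries, so it was at least 306-fold higher against a floor of 3 counts over the C24 group (adjusted p = 4.84e-06). Counting intervals and floors cover counting error only.

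The remaining 3 of these loci were scarce transcripts. AT3G09835 had 38, 29 and 33 counts in Q0990 and 0, 1 and 0 in C24, a ratio of 97.6 (95% counting interval 17.1 to 3895; adjusted p = 0.00716). Its neighbour on chromosome 3, AT3G09845, had 36, 39 and 31 counts in Q0990 and none in C24, at least 34.5-fold higher (adjusted p = 0.00854). The 2 loci are non-coding, lie on opposite strands and are each other's nearest tested gene on that side. AT1G23915 had 32, 39 and 38 counts in Q0990 and none in C24, at least 35.5-fold higher (adjusted p = 0.0132). In J1721 mock libraries AT3G09845 had 7, 3 and 0 counts, and AT3G09835 had 1, 6 and 0. The calls of these scarce loci, and that of AT4G03590 described next, were lost without any 1 of the 3 C24 mock libraries (adjusted p = 0.0687 to 0.103).

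Another 3 loci were read in both Q0990 and J0571. The non-coding RNA AT2G15555 had 3205, 3329 and 3050 counts in Q0990 mock libraries, 2920, 3514 and 3408 in J0571 mock libraries, and 0, 4 and 0 in C24 mock libraries, with 12, 45 and 21 in J1721. Its ratio of Q0990 to C24 was 2339 (95% counting interval 913 to 8588; adjusted p = 1.31e-11), and its log2 difference between Q0990 and J0571 was 0.06 (95% interval -0.46 to 0.57; adjusted p = 0.964). AT3G06955, the 203-base RNA printed above, had 157, 129 and 146 counts in Q0990, 130, 130 and 182 in J0571, and 4, 0 and 3 in C24. It was 5.84 ± 0.48 higher in Q0990 than in C24 on the log2 scale (adjusted p = 1.21e-07). The cystatin-related gene AT4G03590, named after its values were seen because it misses the level set for named genes, had 23, 31 and 20 counts in Q0990, 15, 12 and 19 in J0571 and none in C24 or in J1721, at least 24.1-fold higher in Q0990 than in C24 (adjusted p = 0.00854).

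The last 2 loci were above C24 in other combinations of crosses. AT4G14548, a non-coding RNA beside the auxin repressor gene IAA14, had 197, 203 and 221 counts in Q0990 mock libraries, 232, 129 and 221 in J1721, 68, 42 and 31 in J0571, and 15, 21 and 33 in C24. The difference of Q0990 from C24 was 3.14 ± 0.32 on the log2 scale (adjusted p = 4.02e-06), and that from J1721 was 0.17 (95% interval -0.37 to 0.71; adjusted p = 0.999). AT2G09795, a non-coding RNA that overlaps the pseudogene AT2G09800 on the other strand, was the only called gene that the C24 cross expressed at an appreciable level. It lay at 20.7, 19.5 and 21.5 CPM in Q0990 and at 10.4, 11.6 and 9.57 CPM in C24, 0.97 ± 0.11 higher (adjusted p = 3.03e-05), and its mean was 18.6 CPM in both J0571 and J1721 mock roots. Against the mean of those 2 crosses, 9 of the 10 genes were also called higher in Q0990, and AT2G09795 was not (log2 difference 0.15, adjusted p = 0.716). That comparison uses the same Q0990 mock libraries in which the 10 genes were called, so it is not a separate test of them. A call against that mean does not need a difference from both crosses. Against J0571 alone, AT2G15555, AT3G06955 and AT4G03590 were not called (0.06, 0.06 and 0.77), nor was AT4G14548 against J1721 alone (0.17).

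**Figure D2:**
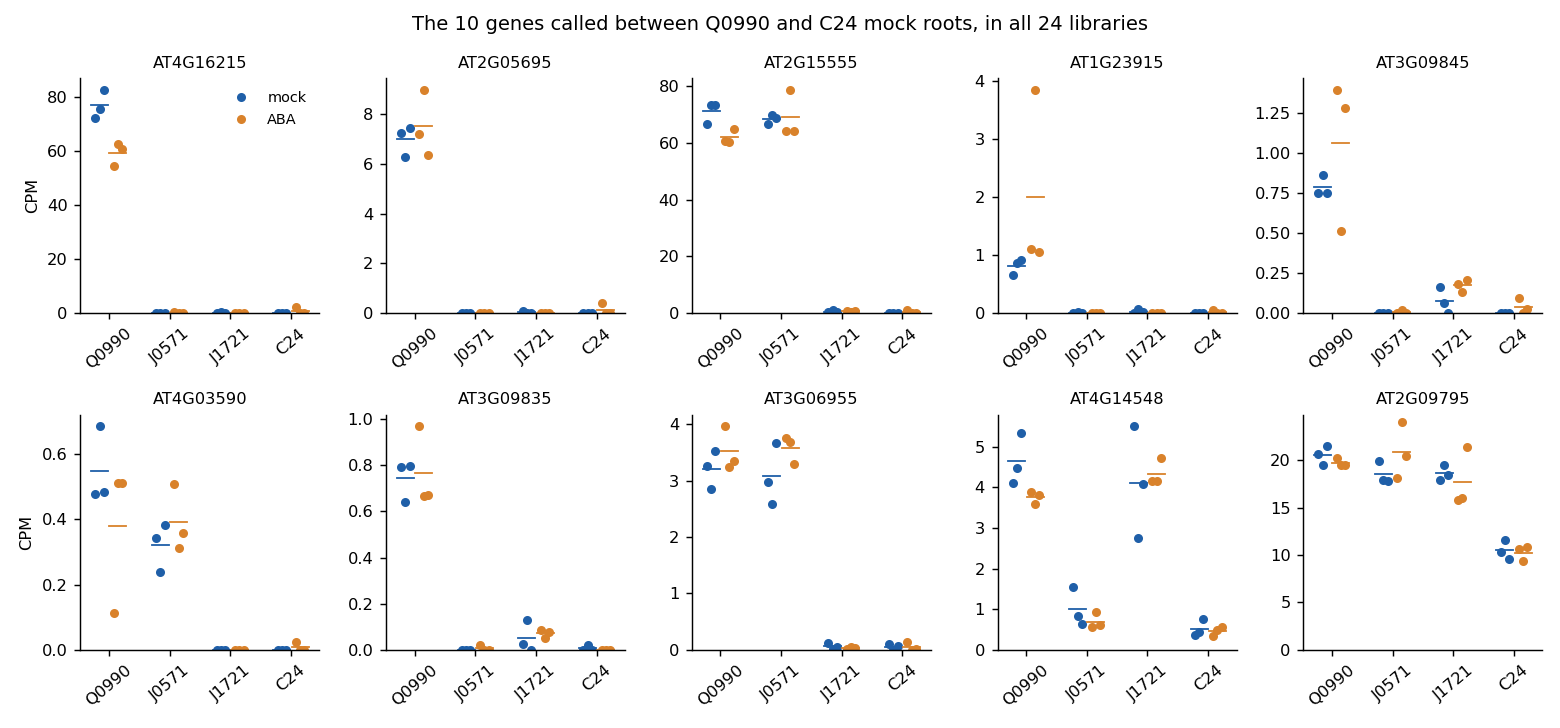
CPM of the 10 called genes in every library, by cross (Q0990, J0571, J1721, C24) and treatment; each point is 1 of 3 libraries and each bar their mean. AT4G16215, AT2G05695, AT1G23915, AT3G09845 and AT3G09835 stand up in Q0990, AT2G15555, AT4G03590 and AT3G06955 in Q0990 and J0571, AT4G14548 in Q0990 and J1721, and AT2G09795 is lowest in C24.

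No neighbour of these loci was called, apart from the pair on chromosome 3. Of the 18 nearest tested neighbours that were not themselves called, 6 had a log2 difference above 0, and an unadjusted p under 0.05 was found for AT2G12400, the left neighbour of AT2G05695, at -0.24 ± 0.06 (adjusted p = 0.428), and for IAA14, at 0.19 ± 0.08 (adjusted p = 0.906). AT2G12400, annotated as a plasma membrane fusion protein, lay at 124, 123 and 119.7 CPM in Q0990 and 149.7, 145 and 137 CPM in C24, without overlap, and IAA14 at 33.0, 31.3 and 32.8 CPM in Q0990 and 26.9, 30.5 and 27.7 CPM in C24, likewise without overlap. Over all genes, 3.95% were lower and 4.7% higher without overlap. MYB11, the flavonol regulator beside AT3G09835, had a log2 difference of -0.25 ± 0.48 (adjusted p = 0.976). Which copy was read is uncertain for some loci. Other places in TAIR10.1 matched at 95% identity or more over at least 150 bases in 3 cases for AT4G16215, the longest over 585 of its 590 bases, in 10 for AT1G23915 and in 1 for AT2G09795, and in none for the other 7 called loci. Reads of AT3G09835 and AT2G09795 could also belong to the gene on the other strand, since the strand setting of the counting is not given in the sources used here.

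The differences recurred in ABA-treated roots, which share no library with the mock comparison. In Q0990 ABA libraries against C24 ABA libraries, 16 genes were called (0.0751%), 15 higher (0.0704%) and 1 lower (0.00469%), with 1019 (4.78%) at an unadjusted p under 0.05, and 9 of the 10 mock genes were among them in the same direction. The remaining gene, AT4G03590, had 5, 20 and 26 counts in Q0990 ABA libraries and 1, 0 and 0 in C24 ABA libraries (adjusted p = 0.0553). AT4G14548 differed by 3.03 with ABA, against 3.14 in mock, and AT2G09795 by 0.94, against 0.97. C24 ABA library 1 held 96 counts of AT4G16215, 48 of AT2G15555 and 18 of AT2G05695, which is 3.82, 1.82 and 5.64% of the Q0990 ABA mean, whereas C24 ABA libraries 2 and 3 held none of these. AT3G06955 had 6, 0 and 1 counts and AT3G09845 had 4, 0 and 1 in C24 ABA libraries 1, 2 and 3, and AT3G09835 had none in any of the 3. The ratio of AT4G16215 was 80.7 with ABA, beside 5039 in mock, and with DESeq2 neither it nor AT2G05695 was called in ABA libraries (adjusted p = 0.277 and 0.323). AT3G09845 lost its ABA call without Q0990 library 1 or 3 or C24 library 2 or 3 (adjusted p = 0.102 to 0.261). No gene passed the test of a difference between the mock and the ABA contrast (954 genes, 4.48%, at an unadjusted p under 0.05 by edgeR). Over both treatments, 7 of the called genes met a stricter description chosen after values were seen, in which the lowest of 6 Q0990 libraries lies more than 5-fold above the highest of 6 C24 libraries. No other gene of the 21315 tested met it, and none did in the opposite direction. The 6 libraries of each cross include the mock libraries in which these genes were called. By the same description, 4 genes stood above C24 in J0571 and 1 in J1721.

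Differences at an unadjusted p under 0.05, the 10 called genes among them, were also followed into the ABA libraries. All 10 had the same sign and an unadjusted p under 0.05 with ABA, so they are part of the shares of the higher genes. Of the 702 genes higher in mock at an unadjusted p under 0.05, 64.2% had the same sign with ABA and 7.98% also had an unadjusted p under 0.05 in that direction, and of the 415 lower genes 45.5 and 5.3%. Over all genes these shares were 48.8 and 2.66%. Between an adjusted p of 0.05 and 0.1 there were 3 genes, named here after their values were seen, each without overlap and higher in Q0990. DLO1 (AT4G10500), an oxygenase gene of salicylic acid breakdown, lay at 1.37, 1.37 and 2.65 CPM in Q0990 and 0.527, 0.825 and 0.509 CPM in C24 (log2 difference 1.51 ± 0.30, adjusted p = 0.0664). The uncharacterized gene AT5G51650 lay at 0.229, 0.42 and 0.627 CPM in Q0990 and 0.0251, 0 and 0.0925 CPM in C24 (3.38 ± 0.67, adjusted p = 0.0664). AT3G08520, of the ribosomal protein L41 family, lay at 64.7, 77.5 and 93.3 CPM in Q0990 and 51.3, 60.1 and 57.1 CPM in C24 (0.48 ± 0.10, adjusted p = 0.097). With ABA their differences were 0.02, 0.45 and 0.37. In mock roots of J0571 and J1721, DLO1 lay 1.09 and 1.15 above C24, AT5G51650 0.13 and 2.54, and AT3G08520 0.43 and 0.12. Of these, only AT3G08520 in J0571 was called (adjusted p = 0.044).

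No member of any of 28 lists of ABA, root cell type, hormone, nutrient, stress and metabolism genes was called. Of 335 members written, 4 were left out, as RefSeq gave their locus another symbol, and 310 passed the filter. Of these, 178 had a log2 difference above 0, beside 51.8% of all genes, and 18 had an unadjusted p under 0.05, beside 5.24% of all genes.

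**Figure D3:**
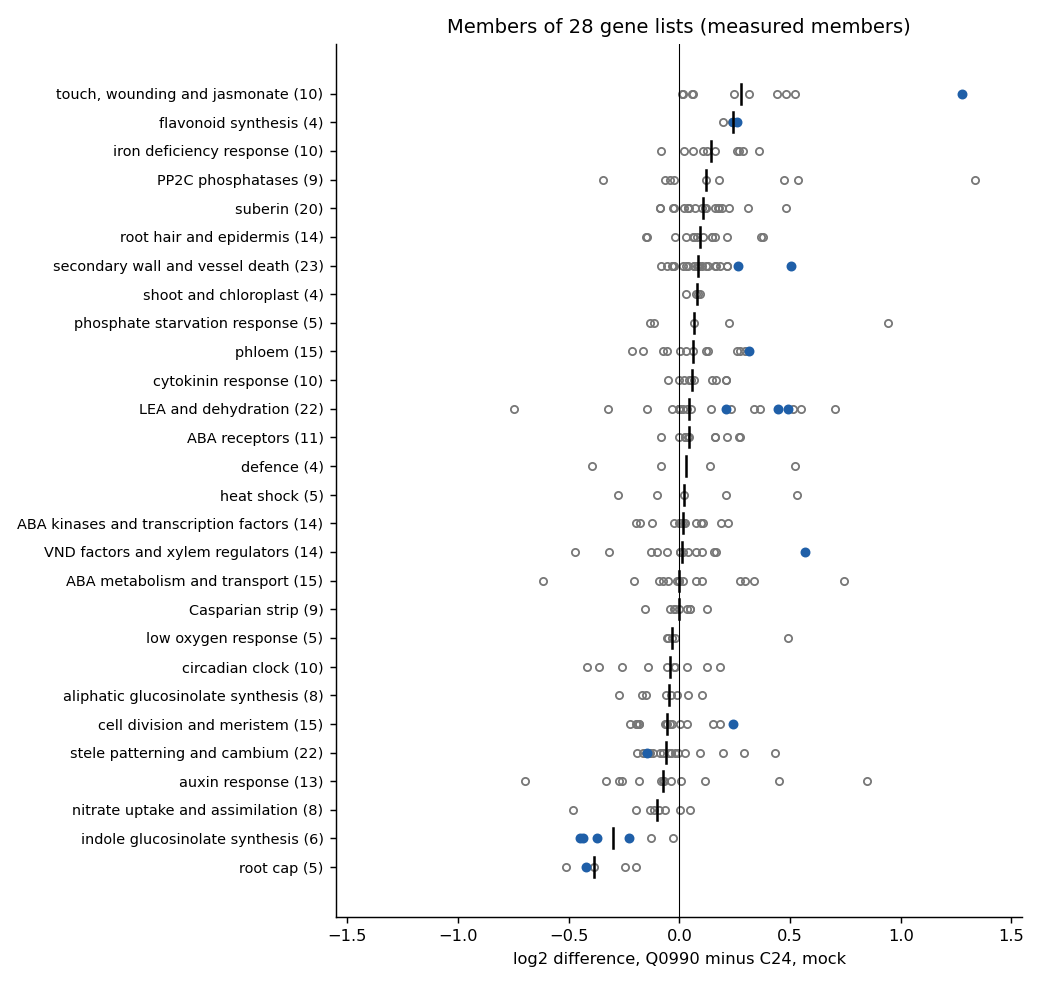
Log2 difference (Q0990 minus C24, mock) of the measured members of the 28 lists, with the number measured in brackets; filled points have an unadjusted p under 0.05 and vertical bars are list medians. Every member of the root cap and indole glucosinolate lists lies below 0 and every member of the touch, wounding and jasmonate and of the flavonoid lists above 0. The phloem genes SWEET11 (1.83) and SWEET12 (-2.63) lie beyond the axis.

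No core gene of ABA signalling was called in mock roots. Among 9 PP2C genes, the phosphatases that hold the pathway off, 5 lay above 0 and 4 below, with a median of 0.12. HAI1, which ABA induces strongly, lay at 5.87, 5.96 and 7.02 CPM in Q0990 and 5.32, 3.88 and 4.44 CPM in C24, without overlap but at 0.47 ± 0.43 (adjusted p = 0.927). Of the 9, 2 were higher without overlap, beside 4.7% of all genes. AHG1, a phosphatase best known from seeds, differed by 0.54 ± 0.29 (adjusted p = 0.906). Of 11 receptor genes, 9 lay above 0 with a median of 0.04, and PYL2 differed by 0.27 ± 0.15. Of 14 kinase and transcription factor genes, 10 lay above 0 with a median of 0.02.

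Targets and enzymes of the pathway showed small values in both directions. Among 22 LEA and dehydration genes, which protect cells during water loss, 14 lay above 0, 5 below and 3 at exactly 0, with a median of 0.04. The 3 at exactly 0, RD20, COR15A and COR15B, had no standard error, so their 0 is not a measured equality. The median counts these 3 values, which draw it toward 0. KIN2, a cold- and ABA-induced gene, lay at 197, 189 and 246 CPM in Q0990 and 161, 137 and 166 CPM in C24, so the groups did not overlap (log2 difference 0.44 ± 0.11, unadjusted p = 0.000582 by edgeR, adjusted p = 0.459). Its neighbouring near-copy KIN1 lay at 19.2, 22.8 and 34.2 CPM in Q0990 and 16.1, 19.1 and 19.0 CPM in C24 (0.49 ± 0.17, adjusted p = 0.891), and reads of the pair may not have been told apart. KIN1 and KIN2 were the 2 genes of the 22 that were higher without overlap, beside 4.7% of all genes. With ABA their differences were 0.06 for KIN2 and 0.14 for KIN1. NCED3, the main stress-induced gene of ABA synthesis, lay at 9.07, 9.56 and 10.13 CPM in Q0990 and 8.13, 6.91 and 8.76 CPM in C24 mock libraries (0.27 ± 0.16, adjusted p = 0.906). In ABA libraries it was called, at 49.4, 56.5 and 68.8 CPM in Q0990 and 37.4, 32.9 and 29.2 CPM in C24 (0.81, adjusted p = 0.022). The difference between its mock and ABA contrasts did not pass the test.

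Genes of the stele itself, where Q0990 is used as a driver, had small differences. Of 22 stele patterning and cambium genes, 17 lay below 0 with a median of -0.06, and the groups were apart and lower in Q0990 for 6, beside 3.95% of all genes. For 2 the groups were apart and higher in Q0990, beside 4.7% of all genes. CNA, an HD-ZIP III factor of vascular patterning, lay at 69.2, 68.2 and 63.5 CPM in Q0990 and 76.3, 72.9 and 72.8 CPM in C24 (log2 difference -0.14 ± 0.07, 95% interval -0.28 to -0.01, adjusted p = 0.906). Its relatives PHV and PHB differed by -0.15 ± 0.08 and -0.13 ± 0.07. LOG3, which activates cytokinin in the xylem precursors, differed the other way, by 0.43 ± 0.21 (adjusted p = 0.906). In ABA libraries 9 of the 22 lay above 0, with a median of -0.01. There CNA, PHV, PHB and LOG3 differed by -0.004, -0.02, -0.001 and 0.07. In whole roots, fewer cells of a type and less RNA per cell cannot be told apart.

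Xylem genes, whose formation ABA is known to influence, gave a mixed picture. Of 14 xylem regulators, 9 lay above 0 with a median of 0.01. The xylem vessel regulator VND5 lay at 3.04, 2.89 and 2.63 CPM in Q0990 and 3.54, 3.42 and 3.72 CPM in C24 (-0.32 ± 0.17), and VND6 differed by -0.47 ± 0.27. LBD18, a factor of lateral root and vessel formation, lay at 2.89, 3.03 and 2.65 CPM in Q0990 and 2.46, 1.73 and 1.62 CPM in C24 (0.57 ± 0.23), each with an adjusted p of 0.906. Of 23 secondary wall and vessel death genes, 18 lay above 0 with a median of 0.08. The wall arabinogalactan gene FLA12 was at 10.14, 9.94 and 15.5 CPM in Q0990 and 7.88, 8.62 and 8.51 CPM in C24 (0.51 ± 0.18, adjusted p = 0.906). Library 3 of Q0990 was highest for FLA12 and for CTL2, a chitinase-like gene of cellulose deposition that had 50.6, 41.3 and 65.0 CPM in Q0990 and 45.9, 40.7 and 43.8 CPM in C24. In ABA libraries, 0 of the 14 regulators and 2 of the 23 wall genes lay above 0, with medians of -0.28 and -0.13.

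Other cell types likewise held no called marker. The 15 phloem genes had a median of 0.06, with 10 above 0 and 5 below. The largest differences, of SWEET11 and SWEET12, went opposite ways, at 1.83 ± 0.88 and -2.63 ± 1.35 (adjusted p = 0.906 each). The sieve element genes SEOR1 and SEOR2 differed by 0.32 ± 0.15 and 0.26 ± 0.13, without overlap. Those 2 were the only phloem genes higher without overlap, beside 4.7% of all genes. Of 9 Casparian strip genes, 4 lay above 0 (median -0.003), and of 20 suberin genes 16 did (median 0.11), led by the suberin regulator MYB41 at 0.48 ± 0.31. Root hair and epidermis genes had a median of 0.09 over 14. All 5 root cap genes lay below 0, with a median of -0.38, and for 3 the Q0990 libraries lay wholly below the C24 libraries, beside 3.95% of all genes. FEZ, a regulator of root cap stem cell divisions, lay at 1.27, 1.21 and 1.13 CPM in Q0990 and 1.98, 1.67 and 1.53 CPM in C24 (-0.51 ± 0.27), BRN1 differed by -0.42 ± 0.20 and BRN2 by -0.38 ± 0.21, each at an adjusted p of 0.906. The summed CPM of the root cap list was 42.7, 38.7 and 34.5 in Q0990 and 46.5, 46.7 and 44.9 in C24. In ABA libraries BRN1 and BRN2 each differed by -0.02 and FEZ by -0.76, and the median of the 5 was -0.21.

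Among metabolic genes, those of indole glucosinolate synthesis, which makes tryptophan-derived defence compounds, had the most members at a low unadjusted p. All 6 lay below 0, with a median of -0.30, and 4 had an unadjusted p under 0.05, beside 1.95% of all genes for that direction. CYP79B2, which with CYP79B3 turns tryptophan into indole-3-acetaldoxime, lay at 169, 161 and 173 CPM in Q0990 and 207, 236 and 245 CPM in C24. CYP79B3 lay at 172, 162 and 165 CPM in Q0990 and 211, 210.6 and 224 CPM in C24. CYP83B1, the next enzyme of the route, lay at 229, 240.5 and 234 CPM in Q0990 and 279, 344 and 329 CPM in C24. None of these 3 overlapped between the groups, and no other member of the 6 was lower without overlap, beside 3.95% of all genes for that direction. Their log2 differences were -0.45 ± 0.11, -0.37 ± 0.12 and -0.44 ± 0.11, with unadjusted p-values of 0.000481, 0.00367 and 0.000445 from edgeR and adjusted p-values of 0.428, 0.746 and 0.428, so none passed the test across genes. SUR1, a C-S lyase of the same route, differed by -0.23 ± 0.09 and its groups overlapped. In ABA libraries the values were -0.44 for CYP79B2, -0.42 for CYP79B3, -0.26 for CYP83B1 and -0.09 for SUR1. The regulators MYB34 and MYB51 differed by -0.03 and -0.13 in mock.

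In 2 further lists every measured member lay above 0. The 10 touch, wounding and jasmonate genes had a median of 0.28, with VSP1, a jasmonate-induced storage protein gene, at 16.4, 20.5 and 34.7 CPM in Q0990 and 15.3, 17.0 and 20.3 CPM in C24 (0.44 ± 0.22), and their median with ABA was 0.06. The 4 flavonoid genes had a median of 0.24. CHS, which opens the flavonoid pathway, lay at 1953, 2033 and 2851 CPM in Q0990 and 1947, 1782 and 1973 CPM in C24 (0.26 ± 0.11), and FLS1, the flavonol synthase gene, differed by 0.24 ± 0.10, each at an adjusted p of 0.906. Both groups overlapped for all 3 genes, and Q0990 library 3 was the highest of the 6 for each. Of 10 iron deficiency genes 9 lay above 0 (median 0.14), of 8 nitrate genes 2 did (median -0.10), and 10 cytokinin response genes had a median of 0.06.

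**Figure D4:**
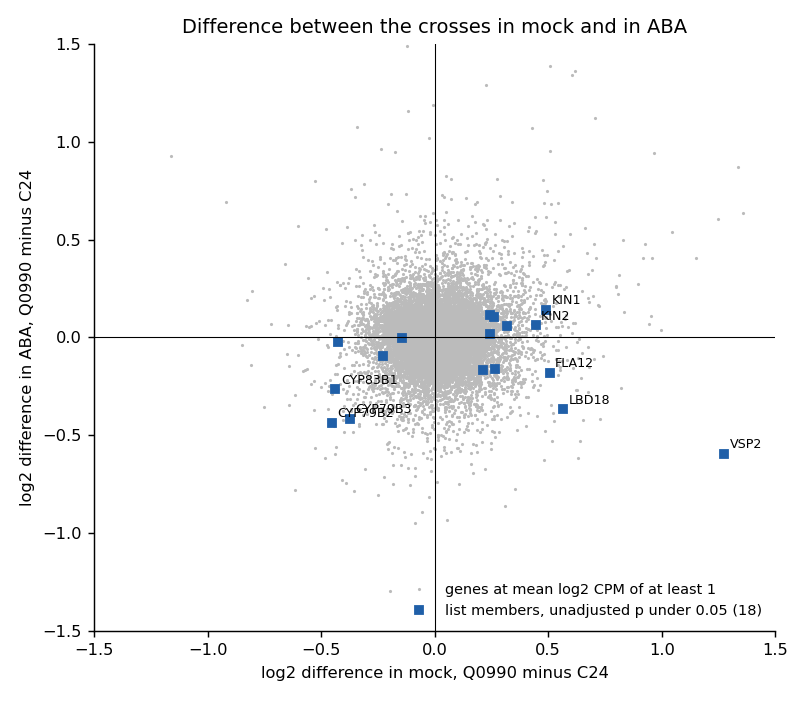
Log2 difference (Q0990 minus C24) in ABA libraries against that in mock libraries for genes whose mean log2 CPM was 1 or more, with axes cut at 1.5; squares are the list members with an unadjusted p under 0.05 in mock. CYP79B2, CYP79B3 and CYP83B1 are below 0 on both axes, whereas KIN1, KIN2, FLA12, LBD18 and VSP2 are above 0 in mock and at 0.14, 0.06, -0.18, -0.37 and -0.59 with ABA.

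Whether Q0990 mock roots differed in the genes that ABA controls was read from classes set on other libraries, the ABA response of J0571 and J1721 (adjusted p under 0.05 and a log2 response of at least 1 in either direction). The 1037 genes raised by ABA there had a median mock log2 difference of 0.10 between Q0990 and C24 (interquartile range -0.06 to 0.30), and 65.8% lay above 0, beside 51.8% of all genes. None was called. Q0990 libraries lay wholly above C24 libraries for 9.06% of the class, beside 4.7% of all genes, and wholly below for 1.35%, beside 3.95%. The 554 genes lowered by ABA had a median of -0.01 and 48.6% above 0. The libraries overlapped in the raised class: its median log2 deviation from the C24 mean was 0.09, 0.06 and 0.18 in Q0990 mock libraries 1, 2 and 3, and 0.07, -0.07 and 0.00 in C24 mock libraries, so C24 library 1 lay above Q0990 library 2. In ABA libraries the median difference of the raised class was 0.01. With mock library 1 of both crosses left out, the mock median was 0.17.

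**Figure D5:**
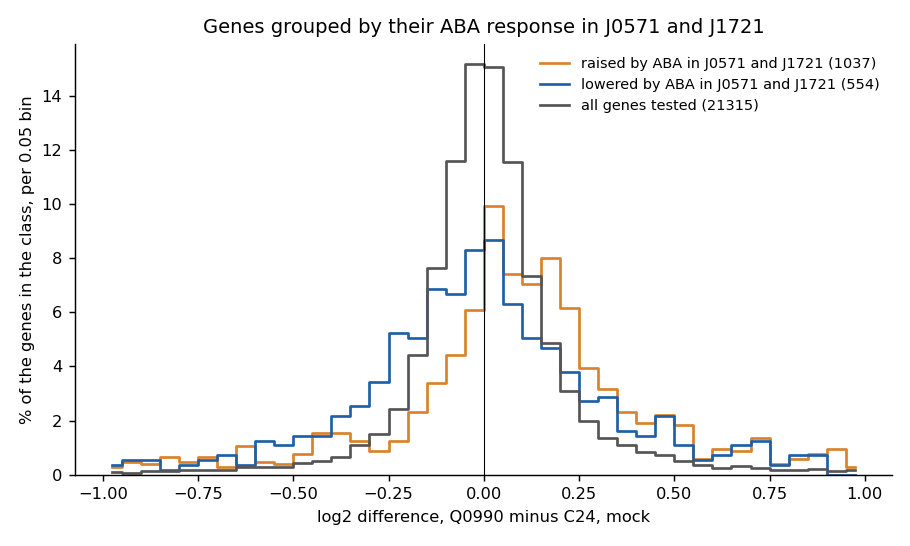
Share of genes per bin of 0.05 in log2 difference (Q0990 minus C24, mock), for 1037 genes raised and 554 genes lowered by ABA in J0571 and J1721 and for all 21315 genes. The raised class is shifted to the right, with a median of 0.10, while the lowered class is centred near 0 like all genes.

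Set against the other driver crosses, Q0990 mock roots again differed in few genes. Against the mean of J0571 and J1721 mock roots, 21 genes were called (0.0985%), 15 higher (0.0704%) and 6 lower (0.0281%). HKT1, the sodium transporter gene of the root stele, lay at 5.06, 3.89 and 4.66 CPM in Q0990, with means of 2.05 and 1.58 CPM in J0571 and J1721 (log2 difference 1.33, adjusted p = 0.03), with an adjusted p of 0.0592 to 0.279 when 1 Q0990 library was left out. Against C24, at 3.24, 2.83 and 1.69 CPM, HKT1 differed by 0.81 ± 0.30 without passing the test (adjusted p = 0.906). GSTF14, a glutathione transferase gene, lay at 2.79, 3.98 and 3.86 CPM in Q0990 and at means of 11.8 and 19.6 CPM in J0571 and J1721 (-2.10, adjusted p = 3.40e-05), beside 4.14, 6.10 and 4.44 CPM in C24. ICL, the isocitrate lyase of the glyoxylate cycle, lay at 21.7, 17.7 and 22.3 CPM in Q0990 and at means of 51.4 and 30.4 CPM in the other driver crosses (-0.94, adjusted p = 0.00333), beside 18.8, 17.8 and 15.5 CPM in C24. GLP9, a germin-like protein gene, differed by -1.34 from the driver crosses and by -0.04 ± 0.22 from C24. AT5G39580, a peroxidase gene, differed by -0.84 from the driver crosses, and AT3G19790 by 0.38. With 1 of the 9 libraries left out in turn, HKT1 and AT5G39580 each lost the call in 7 cases, AT3G19790 in 8, and ICL without Q0990 library 2 (adjusted p = 0.0676). Each driver cross was also set against the same C24 mock libraries, which the comparisons share: 101 genes (0.474%) were called for J0571, 10 for Q0990 and 9 (0.0422%) for J1721. Set against each other, Q0990 and J0571 mock roots differed in 45 genes (0.211%) and Q0990 and J1721 mock roots in 8 (0.0375%).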

How the data were processed

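Per the labels' protocols, RNeasy-purified RNA went into NEBNext Ultra libraries, read from both ends at 150 bases. The authors deposited one table of raw counts covering 24 libraries. HISAT2 and HTSeq are named in the submitters' processing notes. Tool versions, build and annotation are, like strandedness, not given in the sources used here. Overlapping genes and near-identical copies may therefore share reads. Of 34218 features, 32548 matched a RefSeq TAIR10.1 locus, which gave names, neighbours and sequences. No coordinates are printed. Each column belonged to 1 library.

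After filterByExpr and TMM scaling, edgeR 4.0.16 (with R 4.3.3 and limma 3.58.1) fitted 8 group means to the 24 libraries. Quasi-likelihood p-values were adjusted by Benjamini-Hochberg over the 21315 genes left, and calls were made at an adjusted p under 0.05. The procedure was tested on simulated data. DESeq2 1.42.0, limma voom, other filters, scaling, fewer libraries and each library left out were alternatives. Copies of loci were searched with BLAST+ 2.17.0. CPM use normalized library sizes. Folds against a group at 0 use 3 counts over the group.

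The comparison, its gene lists and tests were chosen with earlier results of these data known. Genes named by rule were called genes whose mean log2 CPM was 1 or more with no overlap, up to 15 each way, ABI1, up to 4 members of each list by lowest adjusted p, up to 5 each way against the other drivers, and up to 10 called in both mock and ABA comparisons. Members and genes outside that rule were chosen after their values were seen. Replicates differed by more than counting noise (chi-square over degrees of freedom 10.4 to 34.8 over genes with at least 20 counts), so none was counted as a copy.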

Additional observations from a re-analysis of the deposited data

How the results depend on the processing

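The number of genes called between Q0990 and C24 mock roots, 10, was 17 with DESeq2 (16 higher and 1 lower, all 10 among them), and 6 to 17 with 1 of the 6 libraries left out: 17 without Q0990 library 1, and 6 without C24 library 2. Without library 1 of both crosses it was 8, of which 6 were among the 10. Every call lost when a C24 library was left out was of a locus with at most 39 counts in any Q0990 or C24 mock library (AT1G23915, AT3G09835, AT3G09845 and AT4G03590). The other 6 loci were called under every alternative run. Under scaling by relative log expression, no filter, a stricter filter, limma voom, the 6 libraries alone and the 12 mock libraries alone the count was 7 to 11. Against the other driver crosses, 21 became 70 with DESeq2 (34 higher and 36 lower) and 32 with limma voom, and 14 to 21 with 1 library left out. In ABA libraries 16 became 27 with DESeq2, and 11 to 19 with 1 library left out. The median of the ABA-raised class, 0.10, was 0.17 without library 1 of both crosses and 0.059 to 0.165 with 1 library left out (0.165 without C24 library 1, 0.059 without Q0990 library 3). The median of the ABA-lowered class stayed between -0.04 and 0.03 under every alternative run. The cause of these changes was not tested.

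Whether the replicate numbers pair the libraries was not settled. Deviations of same-numbered Q0990 and C24 mock libraries correlated at 0.37, 0.31 and 0.02 for numbers 1, 2 and 3. Those of differently numbered libraries correlated at -0.37 to 0.20. With a replicate block the mock count was 11 (10 higher and 1 lower, 9 shared), CYP79B2 was called (-0.45, adjusted p = 0.0418), AT4G03590 was not (adjusted p = 0.0919), and the counts were 21 against the other drivers, where AT5G39580 lost its call (adjusted p = 0.0640), and 13 in ABA libraries, where AT3G09845 lost its call (adjusted p = 0.0668). DLO1 was called in 5 alternatives, AT5G51650 and AT3G08520 in 3 each, and AT2G12400 and the transporter gene ABCG22 with DESeq2 only. Among the genes recomputed under the alternatives, no direction changed. The 95% interval of the log2 difference had a median half-width of 0.21 over the genes with a mean log2 CPM of 1 or more, which holds counting error and the spread between libraries together.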
